A study of Rattus norvegicus with 12 samples.

Results

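Receptor tyrosine kinases of growth factors were followed in cultured neural stem cells (NSCs) of the rat. The set holds 10 genes chosen by name, Fgfr1, Fgfr2, Fgfr3, Pdgfrb, Erbb2, Erbb3, Erbb4, Met, Ntrk2 and Kit, out of 14217 genes that the array's annotation names singly. All 22 probe sets that carry 1 of these symbols alone were taken, out of 31042 on the array. Such cells divide in culture and are able to form both neurons and glia. Differentiated spinal cord cultures, proliferative spinal cord cultures, differentiated brain cultures and proliferative brain cultures were each measured on 3 Affymetrix Rat230_2 arrays, 12 in all. The titles mark the differentiated groups with "fenhua", Chinese for differentiation. All cells came from Sprague Dawley rats 3 to 5 days after birth, with no genetic change or added agent named in the labels. The culture media, the means and length of differentiation, and whether the 3 arrays of a group stand for separate cultures or animals are not given in the sources used here. The p-values thus cover array-to-array spread alone, and that spread may be technical.

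A receptor tyrosine kinase is a membrane protein that pairs with a neighbour when its ligand binds and then phosphorylates itself and its partners inside the cell. Docked adaptors pass the signal to the RAS-ERK and PI3K-AKT pathways, and inhibitors such as the Sprouty proteins damp it. In nervous tissue FGF receptors maintain dividing progenitors, ERBB3 and ERBB4 answer neuregulins in glia and neurons, TrkB (the product of Ntrk2) binds the neurotrophin BDNF, PDGFRB marks pericytes and other mesenchymal cells, MET binds hepatocyte growth factor, and KIT binds stem cell factor.

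The values are log2 signals per probe set, that is, of several short probes placed near a transcript's 3' end. Array medians were 7.04 to 7.20 in differentiated and 7.21 to 7.23 in proliferative spinal cord cultures, against 7.13 to 7.18 and 6.88 to 7.08 in the brain cultures. Testing required a signal above the array's own 40th percentile (5.91 to 6.41) on 3 or more of the 12 arrays. A group with all 3 arrays under that level is called dim, and folds relative to such a group are bounds, marked "at least". Of the receptor probe sets 15 were tested, covering 8 of the 10 genes, and the only probe sets of Erbb4 and Kit were not. On spinal cord arrays the 5S rRNA control ran from 8.09 to 8.75 in differentiated and from 8.65 to 9.38 in proliferative cultures. On brain arrays it ran from 7.85 to 8.19 in differentiated and from 9.5 to 11.02 in proliferative cultures. The 3' minus 5' signal of Actb, a sign of RNA quality, was 0.99 to 1.01 on differentiated and 0.69 to 0.99 on proliferative spinal cord arrays. The part of these controls in the results was not tested. The label of the cells was set against markers of neural stem and progenitor cells, 7 of 8 of which were on the array. Their summed linear signal was 40000 to 42100 in differentiated and 42400 to 44200 in proliferative spinal cord cultures, and 61800 to 72600 and 50600 to 60200 in the corresponding brain cultures. In spinal cord cultures 1 of the 7 rose and 4 fell with differentiation, among them Nes (log2 change -1.44), Sox2 (-1.19) and Pax6 (-0.87), while in brain cultures 4 rose and 1 fell. Vim and Fabp7 had the highest signals and so dominate the sums. Of these markers, Hes5, a Notch target, was dim in every group but differentiated brain, and the other 6 were dim in no group.

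In brain cultures 8 of the 15 tested probe sets rose with differentiation and the other 7 were not called, where 46.9% of all 20834 tested probe sets were called. These 8 belong to 3 genes, Ntrk2, Fgfr2 and Fgfr3, so they are not independent of one another. In spinal cord cultures 3 of the 15 rose and 8 fell, where 40.3% of all tested probe sets were called. By the probe set with the highest mean of each gene, Pdgfrb and Erbb2 rose there, and Ntrk2, Fgfr3, Erbb3 and Met fell. Of these, Pdgfrb passed the filter only through differentiated spinal cord arrays and Met only through proliferative brain arrays, and the Met call was lost with dim values at the floor (adjusted p = 0.186). The difference between both responses, spinal cord minus brain, was called for 10 of the 15, with 9 below 0 and 1 above, where 40.5% of all were called. The median log2 change of the tested receptor probe sets was -0.90 in spinal cord and 0.79 in brain cultures, against -0.05 and 0.00 over all tested probe sets. Calls are limma's at an adjusted p under 0.05, with Benjamini-Hochberg adjustment over all probe sets tested.

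**Figure D1:**
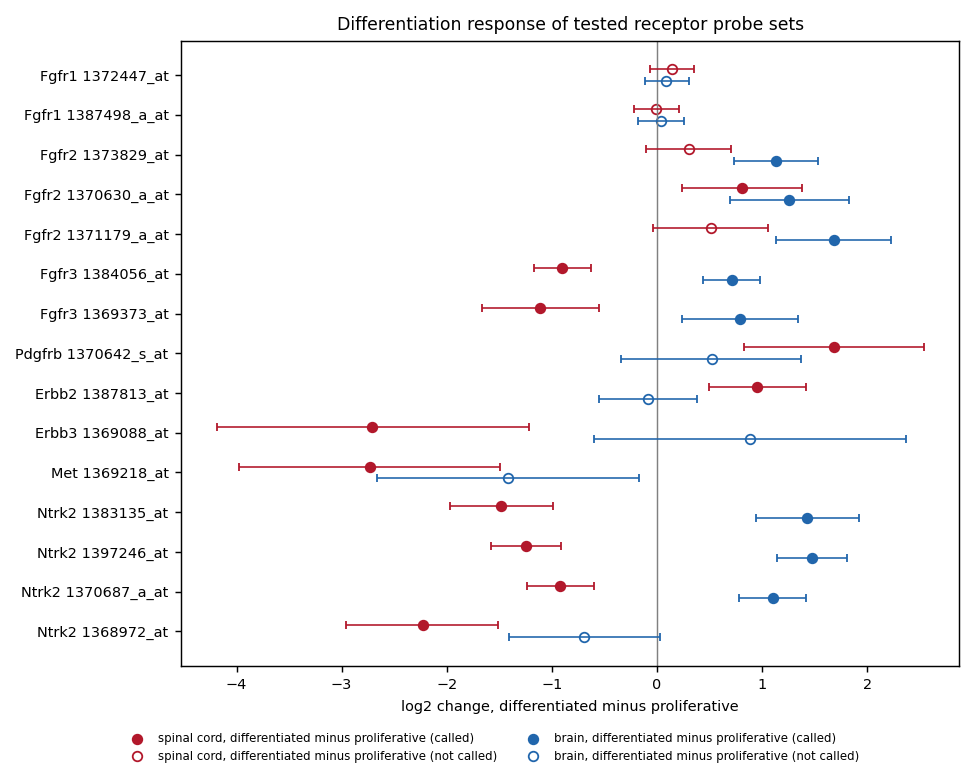
Log2 change of each tested receptor probe set, differentiated minus proliferative, in spinal cord (red) and brain (blue) cultures, with 95% confidence intervals of the limma fit to 12 arrays. Filled points passed the test and open points did not. All 4 Ntrk2 probe sets lie left of 0 in spinal cord, while 3 of them lie right of 0 in brain.

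Ntrk2, the gene of the BDNF receptor TrkB, moved in opposite directions in the cultures of both tissues. Its probe set with the highest mean, 1383135_at, read 10.29, 10.28 and 9.67 in differentiated and 10.91, 11.97 and 11.80 in proliferative spinal cord cultures. In brain cultures it read 13.24, 13.26 and 13.36 in differentiated and 11.93, 11.67 and 11.97 in proliferative ones. Every differentiated spinal cord array lay below, and every differentiated brain array above, all 6 proliferative arrays. The fall in spinal cord was 2.79-fold (log2 change -1.48 ± 0.228 SE, adjusted p = 0.000167). The rise in brain was 2.70-fold (log2 change 1.43 ± 0.228 SE, adjusted p = 0.000175). The responses differed by -2.91 on the log2 scale, spinal cord minus brain (adjusted p = 1.0e-05), and differentiated spinal cord cultures stood 9.25-fold below differentiated brain cultures (adjusted p = 1.0e-07). In the proliferative state the tissues overlapped, with a log2 difference of -0.30 (spinal cord minus brain, adjusted p = 0.336). The order of the group means was differentiated brain, proliferative brain, proliferative spinal cord and differentiated spinal cord, and only the middle pair overlapped.

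The other Ntrk2 probe sets did not all move alike. Probe sets 1397246_at and 1370687_a_at fell 2.37-fold and 1.89-fold in spinal cord cultures, and rose 2.78-fold and 2.15-fold in brain cultures (adjusted p from 5.0e-06 to 0.000252). Probe set 1370687_a_at was also lower in proliferative spinal cord than in proliferative brain cultures (log2 difference -0.57, adjusted p = 0.00844), a call lost when only those groups were fitted (adjusted p = 0.0507). Probe set 1368972_at read 6.06, 6.0 and 5.34 in differentiated spinal cord cultures, where it was dim, and 7.28, 8.32 and 8.50 in proliferative ones. It fell there at least 3.42-fold (adjusted p = 0.000136). In brain cultures it read 7.17, 7.59 and 7.49 in differentiated and 8.52, 8.25 and 7.55 in proliferative ones, which overlap by a single array. Its brain log2 change of -0.69 was not called (adjusted p = 0.110), but passed when replicate 3 of the proliferative brain cultures was left out (log2 change -0.96, adjusted p = 0.0387), without spinal cord proliferative replicate 1 (adjusted p = 0.0480), after median centring (log2 change -0.84, adjusted p = 0.0448) and with only those groups fitted (adjusted p = 0.0486). Its difference of responses, -1.55 (adjusted p = 0.0184), was not called without spinal cord proliferative replicate 3 (adjusted p = 0.0524) or with dim values at the floor (adjusted p = 0.0534).

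The gap between Ntrk2 probe sets was looked at after their values had been seen. On each array, 1383135_at minus 1368972_at was 6.07, 5.67 and 5.86 in differentiated and 3.41, 3.43 and 4.41 in proliferative brain cultures. In spinal cord cultures it was 4.23, 4.28 and 4.33 in differentiated and 3.63, 3.65 and 3.30 in proliferative ones. In brain cultures the gap was wider on every differentiated array than on any proliferative one, so the signals of these probe sets changed unequally there. In differentiated spinal cord cultures 1368972_at was dim, and with its values set at each array's 40th percentile the gaps were 4.21, 3.88 and 3.36, which overlap those of the proliferative cultures. The Ntrk2 gene is known to give a full-length receptor and shorter forms without the kinase, and which form each probe set reads is not given in the tables used here. The fifth probe set, 1370652_at, was above its array's 40th percentile on 1 array, in differentiated brain cultures, and was not tested.

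**Figure D2:**
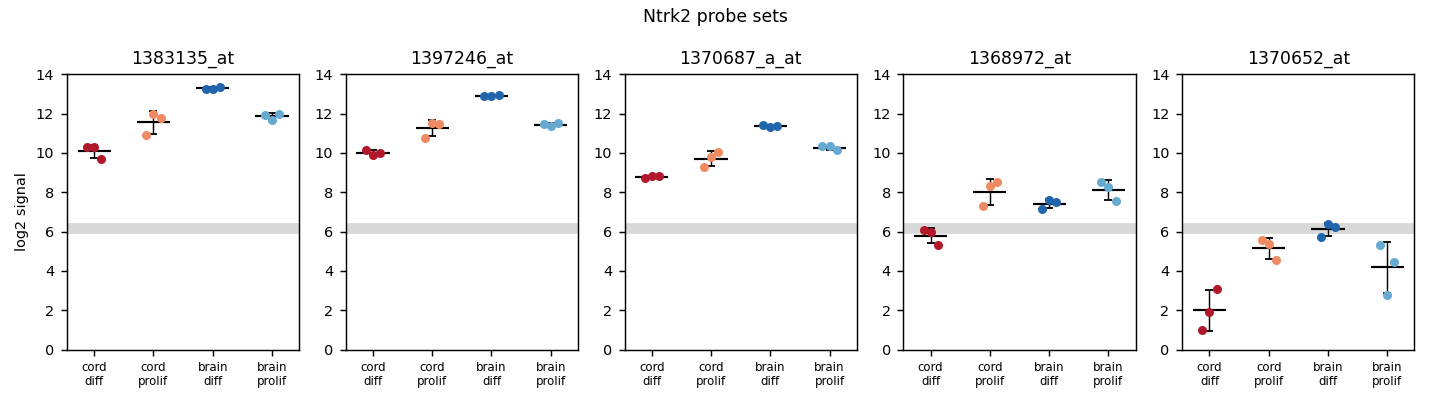
Log2 signal of the 5 Ntrk2 probe sets on each array, with points for arrays, lines for group means, bars for SD (n = 3) and a grey band for the range of the arrays' 40th percentiles (5.91 to 6.41). Differentiated brain arrays are highest for the 3 bright probe sets, and not for 1368972_at.

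Among the FGF receptors, Fgfr3 shared the split seen for Ntrk2, Fgfr2 rose in brain cultures, and Fgfr1 was called in no comparison. FGFR3 is a receptor of astrocytes and their progenitors. Probe set 1384056_at of Fgfr3 read 9.28, 9.0 and 9.37 in differentiated and 10.16, 10.08 and 10.10 in proliferative spinal cord cultures. It read 10.64, 10.75 and 10.70 in differentiated and 9.75, 10.06 and 10.16 in proliferative brain cultures. All differentiated spinal cord arrays were below, and all differentiated brain arrays above, the proliferative arrays. Fgfr3 fell 1.87-fold in spinal cord (adjusted p = 6.7e-05) and rose 1.64-fold in brain (adjusted p = 0.000381). The responses differed by -1.61 (adjusted p = 9.0e-06), and differentiated spinal cord cultures were 2.80-fold below differentiated brain cultures (adjusted p = 4.9e-07). The proliferative cultures of both tissues overlapped (log2 difference 0.12, spinal cord minus brain, adjusted p = 0.467).

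The other Fgfr3 probe set, 1369373_at, fell 2.15-fold in spinal cord cultures (adjusted p = 0.0036) and rose 1.73-fold in brain cultures (adjusted p = 0.0218). Its brain change missed the threshold when replicate 1 of the differentiated cultures (log2 change 0.72, adjusted p = 0.0737) or of the proliferative cultures (log2 change 0.63, adjusted p = 0.0923) was left out. It also missed it under median centring (adjusted p = 0.078) and quantile normalization (adjusted p = 0.0681). Its difference of responses was -1.90 (adjusted p = 0.000945).

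Astrocyte markers, all 8 on the array, were measured beside Ntrk2 and Fgfr3. Of these, 5 rose and 3 fell in spinal cord cultures, and 7 rose in brain cultures. Their summed linear signal was 46100 to 55900 in differentiated and 21900 to 39700 in proliferative spinal cord cultures, and 95100 to 102000 in differentiated and 27000 to 34300 in proliferative brain cultures. None was dim in any group. In spinal cord cultures Gja1, the gap junction protein connexin 43, carried the higher sum, with a linear signal of 26400 to 36600 in differentiated and 6040 to 9660 in proliferative cultures. Without Gja1, singled out after its values were seen, the other 7 markers summed to 18900 to 19700 in differentiated and 15900 to 30100 in proliferative spinal cord cultures, which overlap. Gfap, S100b and Aldoc fell there, with log2 changes of -1.40, -1.40 and -0.98, as did Ntrk2 and Fgfr3. The 5 that rose there, unlike Ntrk2 and Fgfr3, were Aqp4 (2.27), Gja1 (2.12), Slc1a2 (1.38), Aldh1l1 (1.30) and Slc1a3 (0.69). The part of cell composition was not tested, and in bulk RNA fewer cells of a type and less RNA per cell cannot be told apart.

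Fgfr2, whose product has splice forms that differ in the FGFs they bind, rose in brain cultures by all 3 tested probe sets. Probe set 1373829_at read 11.35, 11.28 and 11.23 in differentiated and 10.09, 10.17 and 10.21 in proliferative brain cultures, a rise of 2.19-fold (adjusted p = 0.000205). In spinal cord cultures it read 10.79, 10.67 and 10.56 in differentiated and 10.92, 10.30 and 9.90 in proliferative ones, and the differentiated values lay inside the range of the proliferative ones (log2 change 0.30, adjusted p = 0.217). One array set that overlap, since without spinal cord proliferative replicate 1 the change was called (log2 change 0.57, adjusted p = 0.00158). The responses differed by -0.83 (adjusted p = 0.0203), which median centring brought to -0.60 (adjusted p = 0.0988). Differentiated spinal cord cultures were 1.53-fold below differentiated brain cultures (adjusted p = 0.0160), with the call lost without brain differentiated replicate 1 (adjusted p = 0.0501) or spinal cord differentiated replicate 3 (adjusted p = 0.0562). Proliferative cultures of both tissues were not called (log2 difference 0.22, spinal cord minus brain, adjusted p = 0.381), but were called without spinal cord proliferative replicate 3 (log2 difference 0.46, adjusted p = 0.0357).

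Probe sets 1370630_a_at and 1371179_a_at of Fgfr2 rose 2.39-fold and 3.21-fold in brain cultures (adjusted p = 0.00154 and 0.000124), the second 2.06-fold with a pseudocount of 64. Probe set 1371179_a_at read 5.64, 6.01 and 5.95 in proliferative brain and 6.86, 6.19 and 6.25 in proliferative spinal cord cultures. Only 1 array of each of these groups was above its 40th percentile, so the sizes for 1371179_a_at rest partly on values under that level. In spinal cord cultures 1370630_a_at rose 1.75-fold (adjusted p = 0.0260), and that call was lost without proliferative replicate 2 or 3 or without differentiated replicate 2 or 3 (adjusted p = 0.0805, 0.0831, 0.112 and 0.0647). Probe set 1371179_a_at had a spinal cord log2 change of 0.51 (adjusted p = 0.134), called without proliferative replicate 1 (log2 change 0.72, adjusted p = 0.0448). Its difference of responses was -1.17 (adjusted p = 0.0195) and missed the threshold without brain differentiated replicate 3 (adjusted p = 0.0582) and under both other scalings (adjusted p = 0.0596 with median centring, 0.0636 with quantile normalization). Between differentiated cultures its log2 difference was -0.61 (spinal cord minus brain, adjusted p = 0.0738), called with only those groups fitted (adjusted p = 0.0312), with a pseudocount of 64 (adjusted p = 0.035), without the mean-variance trend (adjusted p = 0.0332) or with dim values at the floor (adjusted p = 0.0166). Between proliferative cultures its log2 difference was 0.56 (adjusted p = 0.102), called without the mean-variance trend (adjusted p = 0.0493). The other 2 Fgfr2 probe sets were not tested, being above their array's 40th percentile on 2 arrays and on none.

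Fgfr1, an FGF receptor of neural progenitors, was above the 40th percentile on all 12 arrays. Probe set 1372447_at read 11.40, 11.48 and 11.39 in differentiated and 11.10, 11.46 and 11.28 in proliferative spinal cord cultures, and 11.57, 11.54 and 11.63 in differentiated and 11.45, 11.60 and 11.41 in proliferative brain cultures. The states overlapped in both tissues. The log2 change was 0.14 in spinal cord (95% confidence interval -0.07 to 0.35) and 0.09 in brain (-0.11 to 0.30). Probe set 1387498_a_at had changes of -0.01 in spinal cord (-0.22 to 0.21) and 0.04 in brain (-0.18 to 0.26). Both probe sets had a log2 difference of -0.20 between proliferative cultures (spinal cord minus brain, adjusted p = 0.117 and 0.129). These were called after median centring (log2 difference -0.41 for each, adjusted p = 0.00837 and 0.0139), and for 1372447_at also without spinal cord proliferative replicate 2 (log2 difference -0.29, adjusted p = 0.0334). Between differentiated cultures 1387498_a_at had a log2 difference of -0.25 (spinal cord minus brain, adjusted p = 0.0617), called without spinal cord proliferative replicate 1 (adjusted p = 0.0358) or with only those groups fitted (adjusted p = 0.0377).

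RefSeq's table of sequences around gene starts (build GRCr8) held 6 of the 10 receptors. The 250 bases before the start are shown for Fgfr2 and Fgfr3, which rose together in brain cultures, and for Erbb2, which was not called there and rose in spinal cord cultures. Whether these starts are used in the cultures was not measured. Capitals mark the GC box GGGCGG, or CCGCCC on the other strand, and no matches overlap. The Fgfr2 window lies at chr1:194280915-194281164 on the minus strand, the Fgfr3 window at chr14:81227210-81227459 on the minus strand and the Erbb2 window at chr10:83907351-83907600 on the plus strand.
Fgfr2: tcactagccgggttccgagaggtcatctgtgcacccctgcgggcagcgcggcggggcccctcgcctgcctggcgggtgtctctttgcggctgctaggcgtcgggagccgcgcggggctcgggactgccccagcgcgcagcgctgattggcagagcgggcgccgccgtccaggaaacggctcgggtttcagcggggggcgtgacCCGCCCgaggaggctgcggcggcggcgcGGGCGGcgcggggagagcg
Fgfr3: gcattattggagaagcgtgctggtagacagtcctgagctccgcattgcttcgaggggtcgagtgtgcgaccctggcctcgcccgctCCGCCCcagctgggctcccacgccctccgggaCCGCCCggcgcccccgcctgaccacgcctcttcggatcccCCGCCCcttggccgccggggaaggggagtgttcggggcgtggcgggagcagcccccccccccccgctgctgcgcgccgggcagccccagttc
Erbb2: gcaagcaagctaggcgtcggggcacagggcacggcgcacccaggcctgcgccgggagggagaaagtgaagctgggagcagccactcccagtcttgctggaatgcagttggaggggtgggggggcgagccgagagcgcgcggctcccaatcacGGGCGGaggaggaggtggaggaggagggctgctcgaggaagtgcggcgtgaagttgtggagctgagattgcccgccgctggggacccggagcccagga
The windows held 2, 3 and 1 GC boxes in this order, and 30.5% of all 33469 windows of this length held at least 1. They held 37, 26 and 19 CpG dinucleotides, against a median of 5 over all windows. Of the other receptors with a window, Erbb4 and Kit, which were not tested, had 1 GC box each and 31 and 20 CpG. Met, not called in brain cultures, had no GC box and 3 CpG. The table held no window for Ntrk2, the third gene that rose in brain cultures.

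The ERBB receptors, which work as dimers, went apart from each other. ERBB2 binds no ligand of its own and serves as a partner, while ERBB3 binds neuregulins and has a weak kinase. Erbb2 read 7.97, 7.80 and 7.77 in differentiated and 6.46, 7.25 and 6.98 in proliferative spinal cord cultures, with no overlap. It read 7.90, 7.48 and 7.43 in differentiated and 7.56, 7.80 and 7.71 in proliferative brain cultures, which overlapped. Erbb2 rose 1.94-fold in spinal cord (adjusted p = 0.00317), and its log2 change in brain was -0.09 (95% confidence interval -0.55 to 0.38, adjusted p = 0.767). The responses differed by 1.04 (adjusted p = 0.0148). The group that stood lowest was proliferative spinal cord, 1.73-fold below proliferative brain (adjusted p = 0.0107), and the arrays of differentiated spinal cord (mean 7.85), differentiated brain (mean 7.60) and proliferative brain cultures (mean 7.69) overlapped.

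Erbb3 was brightest in proliferative spinal cord cultures, at 7.96, 7.68 and 7.99, and read 3.24, 5.85 and 6.42 in differentiated ones. In brain cultures it read 6.62, 6.19 and 6.31 in differentiated and 5.46, 6.62 and 4.39 in proliferative ones. All proliferative spinal cord arrays were above the other 9, most of which lay near or under the 40th percentile. The fall in spinal cord was 6.53-fold (log2 change -2.71 ± 0.691 SE, adjusted p = 0.00667), a size that rests on values under that level. It was 3.34-fold without differentiated replicate 1 (adjusted p = 0.0181), 10.1-fold without differentiated replicate 3 (adjusted p = 0.00271), 2.99-fold with dim values at the floor and 2.71-fold with a pseudocount of 64. In brain the log2 change was 0.88 (95% confidence interval -0.60 to 2.37, adjusted p = 0.320), and the responses differed by -3.59 (adjusted p = 0.00964). That difference was -2.63 without spinal cord differentiated replicate 1, -4.22 without replicate 3, -1.75 with dim values at the floor and -1.81 with a pseudocount of 64, and stayed called in each case. Proliferative spinal cord cultures were 5.23-fold above proliferative brain cultures (adjusted p = 0.0147), with the call lost without brain proliferative replicate 3 (log2 difference 1.84, adjusted p = 0.0648), and 3.12-fold and 2.62-fold with dim values at the floor and with the pseudocount. Erbb4, a further neuregulin receptor, was dim in all 4 groups, with values from -0.17 to 4.33.

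Erbb3 is known in oligodendrocyte precursors and Schwann cells, whose markers were measured beside it. Of 7 oligodendrocyte precursor markers on the array, 1 rose and 6 fell in spinal cord and 6 rose in brain cultures. Their summed signal was 15300 to 17200 in differentiated and 21400 to 25600 in proliferative spinal cord cultures, and 17700 to 18500 and 7220 to 8570 in the corresponding brain cultures, with Olig2 and Pcdh15 dim in differentiated spinal cord cultures. The 1 that rose in spinal cord, Pdgfra (log2 change 0.72), dominates the differentiated sum there, with a mean of 13.64 against 11.25 for Olig1, the next. Beside the dim Olig2 and Pcdh15, Cspg4 (-3.44), Cspg5 (-2.52), Olig1 (-2.26) and Sox10 (-1.26) fell there. Of 6 Schwann cell markers on the array, 1 rose and 5 fell in spinal cord and 3 rose and 2 fell in brain cultures. The summed Schwann cell signal was 6840 to 7420 in differentiated and 11500 to 18400 in proliferative spinal cord cultures, and 21900 to 23700 and 7460 to 8620 in the corresponding brain cultures. Their part in the Erbb3 result was not tested.

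Pdgfrb, the receptor of PDGF-B and PDGF-D, was brightest in differentiated spinal cord cultures. Its tested probe set, 1370642_s_at, read 8.22, 8.40 and 8.42 there and 5.76, 7.33 and 6.91 in proliferative spinal cord cultures. It was dim in both brain groups, at 6.24, 5.41 and 6.18 in differentiated and 4.88, 5.89 and 5.51 in proliferative ones. The probe set passed the filter only through the differentiated spinal cord arrays, so a difference from the other groups was built in. It rose 3.21-fold in spinal cord (adjusted p = 0.00404) and was at least 4.14-fold higher in differentiated spinal cord than in differentiated brain cultures (adjusted p = 0.000257). Proliferative spinal cord cultures were at least 1.47-fold above proliferative brain cultures (adjusted p = 0.0249), although their arrays overlapped. That call was lost without spinal cord proliferative replicate 2 or 3 or brain proliferative replicate 1 (adjusted p = 0.120, 0.0829 and 0.0994), after quantile normalization (adjusted p = 0.0735) and with only those groups fitted (adjusted p = 0.0819). The responses differed by 1.17, which was not called (adjusted p = 0.116), but was with dim values at the floor (log2 difference 1.28, adjusted p = 0.00252), with a pseudocount of 64 (adjusted p = 0.0160) or without spinal cord proliferative replicate 2 (adjusted p = 0.0499). The other 2 Pdgfrb probe sets were above their array's 40th percentile on 1 array each, both in differentiated spinal cord cultures, and were not tested.

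Markers of fibroblasts and meninges, all 8 on the array, moved with Pdgfrb. Of these, 6 rose with differentiation in spinal cord cultures, 2 rose and 2 fell in brain cultures, and all 8 were higher in spinal cord than in brain cultures in either state. Their summed signal was 96800 to 112000 in differentiated and 24000 to 47700 in proliferative spinal cord cultures, and 809 to 1000 and 482 to 700 in the corresponding brain cultures. In differentiated brain cultures Lum, Dcn, Ogn and Dpt were dim. Of 8 markers of pericytes and smooth muscle, 5 were tested, of which 1 rose and 1 fell in spinal cord and 1 rose in brain cultures. The summed signal of that list was 2320 to 2470 in differentiated and 2210 to 2880 in proliferative spinal cord cultures, and 934 to 1210 and 417 to 1000 in the corresponding brain cultures. The pericyte markers Rgs5, Kcnj8 and Abcc9 were dim in all 4 groups. The part of fibroblast RNA in the Pdgfrb result was not tested.

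Met, the receptor of hepatocyte growth factor, was dim in differentiated cultures of both tissues and slightly above the 40th percentile in most proliferative ones. It read 3.58, 5.22 and 2.49 in differentiated and 6.74, 6.26 and 6.49 in proliferative spinal cord cultures. In brain cultures it read 5.62, 4.94 and 5.05 in differentiated and 6.56, 6.83 and 6.47 in proliferative ones. The states did not overlap in either tissue, and the probe set passed the filter only through the proliferative brain arrays. Met fell at least 1.18-fold in spinal cord (adjusted p = 0.00193), a call that was lost with dim values at the floor (log2 change -0.27, adjusted p = 0.186). In brain the log2 change was -1.42 and was not called (adjusted p = 0.0593), with a bound of at least 1.25-fold lower. It was called with only those groups fitted (adjusted p = 0.00612), with a pseudocount of 64 (adjusted p = 0.00439), after median centring (adjusted p = 0.0352), after quantile normalization (adjusted p = 0.0288), and without spinal cord differentiated replicate 2 or 3 (adjusted p = 0.0153 and 0.0194). The responses differed by -1.32 (adjusted p = 0.221), a value between dim groups, and without spinal cord differentiated replicate 2 by -2.05 (adjusted p = 0.0229). Between differentiated cultures, both dim, the log2 difference was -1.44 (spinal cord minus brain, adjusted p = 0.0611), and -2.17 without that array (adjusted p = 0.00312).

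Kit, the receptor of stem cell factor on mast cells, melanocytes and some progenitors, was above the 40th percentile on 1 array only, brain proliferative replicate 2, at 6.67. Its other values ran from 2.85 to 5.92, and it was not tested. Of 8 markers of mast cells and melanocytes, Cpa3, Mcpt1, Fcer1a and Tyr were dim in all 4 groups. Of the 4 others, 2 fell in spinal cord and 3 rose in brain cultures. Among lists that bear on no single receptor, 2 of 7 oligodendrocyte markers and 2 of 5 tested microglial markers fell in spinal cord cultures, and 6 and 3 of them rose in brain cultures. Of 8 neuronal markers, 6 fell in spinal cord cultures, and 2 rose and 4 fell in brain cultures.

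**Figure D3:**
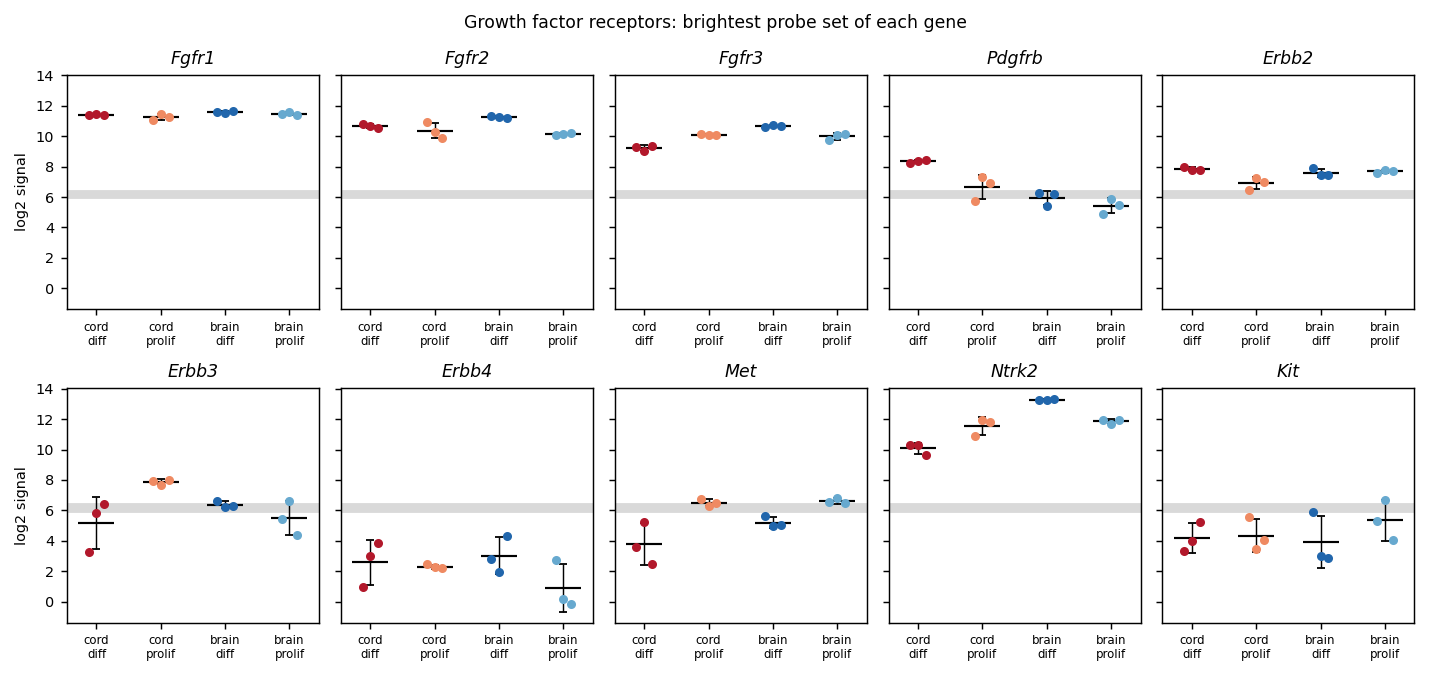
Log2 signal of the probe set with the highest mean of each receptor gene on each array, with points for arrays, lines for group means, bars for SD (n = 3) and a grey band for the range of the arrays' 40th percentiles. Erbb4 lies wholly under the band, and Fgfr1 stays between 11.10 and 11.63 on all arrays.

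Between tissues, the receptor probe sets differed more often in the differentiated than in the proliferative state, a difference of counts that was not itself tested. In differentiated cultures 1 of the 15 was higher and 7 were lower in spinal cord than in brain, where 41.4% of all tested probe sets were called. The higher one was Pdgfrb, and the lower ones were 4 of Ntrk2, 2 of Fgfr3 and 1 of Fgfr2. In proliferative cultures 2 were higher and 2 lower in spinal cord, 26.7% of the receptor probe sets, where 37.8% of all were called. The higher ones were Pdgfrb and Erbb3, and the lower ones were Erbb2 and 1 probe set of Ntrk2. This count of 4 was 6 after median centring and 2 with only those groups fitted. Whether the receptors' share lay below that of the array was not tested.

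Genes with profiles most like those of the receptors were found by the root mean square difference over the 12 arrays, after each profile was centred on its own mean, among 11218 genes. Nearest to Fgfr3 was Sox2, a transcription factor of neural progenitors, with a difference of 0.15, where the median over all genes was 0.67. Nearest to Ntrk2 were Ctnnd2, Luzp2 and Asrgl1, with 0.32, 0.36 and 0.38 against a median of 1.24. Pdgfrb was nearest to C1qtnf6, Hacd4 and Ly6e, with 0.31, 0.32 and 0.36 against 1.28. The genes closest to Fgfr2 were Carmil1, Gnptg and Cpt1c (0.15, 0.16 and 0.16 against 0.65), and those closest to Erbb2 were Sipa1l1, Pdpn and Unc119b (0.16, 0.17 and 0.18 against 0.59). Fgfr1, which hardly varied, had neighbours at 0.08 to 0.09 against 0.42. No close neighbour existed for Erbb3, whose nearest gene, Prkg2, lay at 0.73 against 1.41, or for Met, whose nearest gene, Mchr1, lay at 0.54 against 1.33.

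The ligands of these receptors were measured through 1 probe set per gene. Of 12 FGF ligands on the array 5 were tested, with 1 rise and 2 falls in spinal cord and the same numbers in brain cultures. Fgf2, a mitogen of NSCs, fell 1.56-fold in spinal cord (adjusted p = 0.021) and 1.45-fold in brain cultures (adjusted p = 0.0426). Fgf9, secreted by neurons and glia, fell at least 1.29-fold in spinal cord and at least 1.78-fold in brain cultures. It was above the 40th percentile on 3 brain and 2 spinal cord arrays, all proliferative. Fgf9 thus passed the filter only through the proliferative brain arrays, so its brain fall was built in. Fgf7 and Fgf10, FGFs of mesenchymal cells, were dim in both brain groups, and were at least 2.91-fold and 2.9-fold higher in differentiated spinal cord than in differentiated brain cultures (adjusted p = 0.000493 and 0.00191). Fgf1 averaged 7.77 ± 0.25 in differentiated and 5.41 ± 1.76 in proliferative spinal cord cultures (SD, n = 3 each; adjusted p = 0.044) and was dim in both brain groups, so its call in brain is given no size. No brain array had Fgf1, Fgf7 or Fgf10 above its 40th percentile, so the filter was passed through spinal cord arrays alone. Fgf1 and Fgf7 were above it on 4 and 5 spinal cord arrays, and would not have passed without the differentiated ones. The spinal cord rise of Fgf1 was thus built in.

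All 3 PDGF ligands on the array were tested. Pdgfc rose 2.18-fold (adjusted p = 0.00255) and Pdgfd at least 1.08-fold (adjusted p = 0.0169) in spinal cord cultures, and neither was called in brain cultures. Pdgfd was above the level used to call a group dim on 3 arrays, 2 of differentiated spinal cord and 1 of proliferative brain cultures. It would not have passed the filter without the differentiated spinal cord arrays, so its rise there was built in. Pdgfa, the ligand of the alpha receptor, had a log2 change of -0.34 in spinal cord (adjusted p = 0.0551) and -0.02 in brain. Nrg1, the ligand of ERBB3 and ERBB4, averaged 6.24 ± 0.23 in differentiated and 8.02 ± 0.66 in proliferative spinal cord cultures (SD, n = 3 each), a fall of 3.44-fold (adjusted p = 0.000193). In brain cultures its log2 change was 0.1, and the responses differed by -1.88 (adjusted p = 0.00183). Only 4 of the 6 spinal cord arrays had Nrg1 above the level used to call a group dim. Nrg1 and Erbb3 both fell in spinal cord cultures, with sizes that rest partly on values under that level. Nrg2 was called in 1 of the 5 comparisons. It was lower in differentiated spinal cord, where it was dim, than in differentiated brain cultures (adjusted p = 0.0105). Its mean in differentiated brain cultures, 6.13, was also under the level used to call a group dim, so that difference is given no size. Nrg2 was above that level on 3 arrays, 2 of differentiated brain and 1 of proliferative spinal cord cultures. It would not have passed the filter without the differentiated brain arrays, so that call was built in. Bdnf, the ligand of TrkB, had log2 changes of -1.38 in spinal cord (adjusted p = 0.0848) and -0.09 in brain (adjusted p = 0.917). It was 5.26-fold higher in proliferative spinal cord than in proliferative brain cultures (adjusted p = 0.00639), although their arrays overlapped. Bdnf was above the level used to call a group dim on 3 brain arrays, and neither brain group was dim. That size thus rests partly on values under that level. Kitlg, stem cell factor, fell 2.34-fold in brain cultures (adjusted p = 2.1e-05) and had a log2 change of -0.27 in spinal cord (adjusted p = 0.185).

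Of 19 other growth factor receptors tested, 5 rose and 5 fell in spinal cord cultures and 8 rose and 5 fell in brain cultures. The largest rises in spinal cord were those of Ddr2, a collagen receptor of mesenchymal cells, at 7.84-fold (adjusted p = 9.8e-07), and Ptk7, a receptor of planar polarity signalling, at 5.08-fold (adjusted p = 3.2e-09). Ddr2 also rose 2.55-fold in brain cultures (adjusted p = 0.00066), where Ptk7 was not called (adjusted p = 0.207). In brain cultures Ret, a receptor of the GDNF family, rose at least 2.26-fold (adjusted p = 0.00128) and Ddr1, a collagen receptor of epithelia and glia, 3.15-fold (adjusted p = 3.1e-08). Ddr1 fell 2.01-fold in spinal cord cultures (adjusted p = 3.5e-06), where Ret was not called (adjusted p = 0.888). Flt1, a receptor of VEGF, fell at least 1.41-fold in spinal cord (adjusted p = 0.0387) and at least 1.87-fold in brain cultures (adjusted p = 0.00034). Flt1 passed the filter only through the proliferative brain arrays, so its brain fall was built in. Kdr, a further VEGF receptor, fell in spinal cord cultures (adjusted p = 0.00804), where it was dim in the differentiated state. The proliferative mean of Kdr there, 6.26, was also under the level used to call a group dim, so its fall is given no size. Ryk, a Wnt receptor, rose 1.61-fold in spinal cord and fell 1.58-fold in brain cultures. Of 7 endothelial markers on the array, which include Flt1 and Kdr, 7 were dim in differentiated spinal cord, 5 in proliferative spinal cord, 6 in differentiated brain and 5 in proliferative brain cultures.

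Of 14 co-receptors, 6 rose and 7 fell in spinal cord cultures and 5 rose and 4 fell in brain cultures. In spinal cord Gpc4, a glypican, and Nrp1, a neuropilin that assists VEGF receptors, rose 7.78-fold and 4.83-fold. Gpc4 also rose 1.57-fold in brain cultures, where Nrp1 was not called. Sdc3, a syndecan of nervous tissue, fell 8.74-fold in spinal cord and rose 2.39-fold in brain cultures, and Gfra1, which binds GDNF for RET, fell 2.7-fold and rose 1.38-fold. In brain Plxnb1, a plexin that can pair with MET, and Sort1, a partner of neurotrophin receptors, rose 3.51-fold and 3.24-fold. Plxnb1 fell 1.44-fold in spinal cord cultures, where Sort1 was not called. Sdc1, a further syndecan, fell 6.09-fold in brain and rose 1.67-fold in spinal cord cultures, and Ngfr, the low-affinity neurotrophin receptor, fell at least 1.28-fold in brain and 2.26-fold in spinal cord cultures.

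Downstream, 7 of 19 adaptors and effectors rose and 7 fell in spinal cord cultures, and 5 rose and 6 fell in brain cultures. Grb10, an adaptor that restrains insulin receptor signalling, rose 10.2-fold in spinal cord cultures (adjusted p = 0.000113). In brain cultures Grb10 fell (adjusted p = 0.00345) and was dim in the differentiated state. Its proliferative mean there, 5.51, was also under the level used to call a group dim, so that fall is given no size. Its relative Grb14 rose 3.2-fold in spinal cord and 3.14-fold in brain cultures, and Pik3r3, a regulatory subunit of PI3K, 3.07-fold and 3.8-fold. Gab1, a docking protein of MET and EGFR signalling, fell 1.54-fold in spinal cord and rose 3.4-fold in brain cultures. Irs2, an insulin receptor substrate, fell 2.18-fold in spinal cord and 2.7-fold in brain cultures. Shc3, a neuronal adaptor, fell in spinal cord cultures (adjusted p = 0.00581), where it was dim in the differentiated state. The proliferative mean of Shc3 there, 6.22, was also under the level used to call a group dim, so its fall is given no size. Of 12 inhibitors, 3 rose and 8 fell in spinal cord cultures and 10 fell in brain cultures, with median log2 changes of -0.83 and -1.20. Dusp6, a phosphatase of ERK, fell 3.08-fold in spinal cord and 5.53-fold in brain cultures. The Sprouty genes Spry2 and Spry4 fell 6.53-fold and 4.58-fold in spinal cord, and 2.52-fold and 3.7-fold in brain cultures. Lrig1, which binds ERBB receptors and MET, and its relative Lrig3 rose 2.59-fold and 2.5-fold in spinal cord, and fell 1.62-fold and 1.88-fold in brain cultures.

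**Figure D4:**
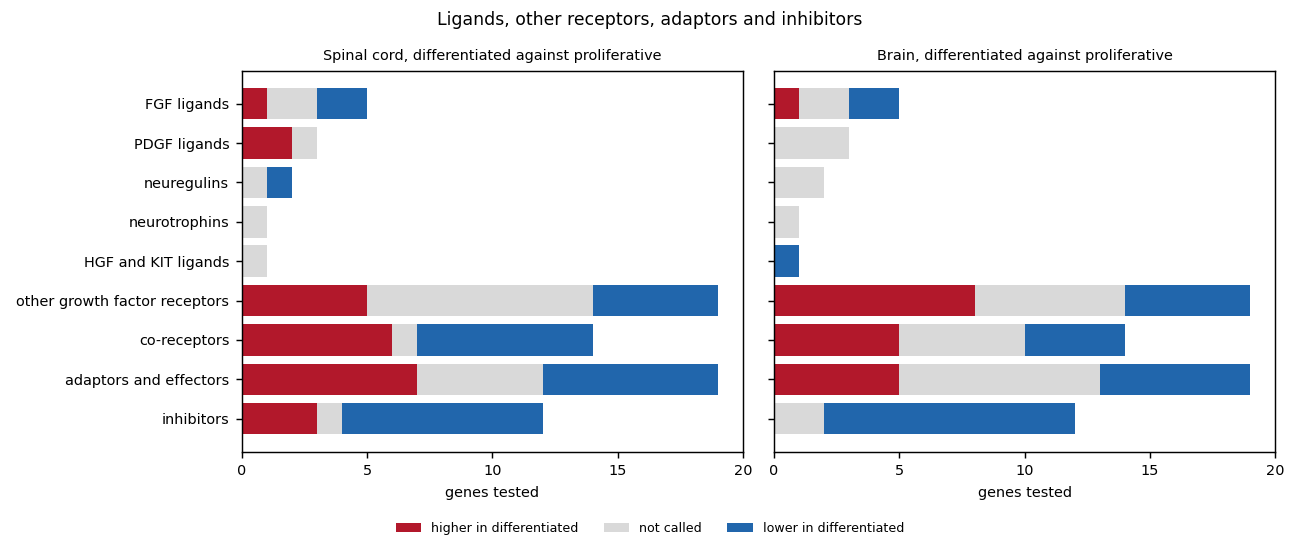
Number of tested genes of each list that were higher, not called or lower in differentiated than in proliferative cultures, in spinal cord (left) and brain (right). Inhibitors have 10 lower genes of 12 in brain and 8 of 12 in spinal cord cultures.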

How the data were processed

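Per the submitters' processing notes, the arrays were processed with MAS5 and affy, with no version given. The authors deposited 1 log2 signal for each probe set and array. On the linear scale every array had a mean of 500 once 2% of values at each end were trimmed. Of 31099 probe sets, 57 controls were left out. In the platform annotation 20826 probe sets had 1 symbol, 436 had several and 9780 had none. Of the first, 20758 matched a current gene (GRCr8) by Entrez ID. The receptors were matched by the platform's symbol, and for other genes the probe set with the highest mean stood for the gene. A linear model with a mean per group was fitted to all 20834 tested probe sets on 12 arrays with limma 3.58.1 in R 4.3.3 (lmFit, eBayes with trend, 8 residual degrees of freedom), and p-values were adjusted over them by Benjamini-Hochberg. On data simulated with normal noise for brain differentiation over 20834 probe sets, the fit called 53% of log2 changes of 1 and 88% of log2 changes of 2. Far fewer probe sets were changed there than the 46.9% called in the data, so these shares do not give the sensitivity in the data. A bound on a fold takes the mean of the dim group's 40th percentiles. The members, lists of ligands, other receptors, co-receptors, adaptors, inhibitors and cell type markers, and tests were chosen with earlier results of these data known. Some marker genes are in more than 1 list. Named list genes are the tested ligands and, per list and tissue, up to 2 genes with the largest rise and fall among those called. The number of arrays limits the precision. Alternatives were another scaling (median centring, quantile), no or a stricter filter (6 arrays), a pseudocount of 64, no trend, only the groups compared, the replicate number as a block, each array left out and, added after the data were seen, dim values set at the 40th percentile.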

Additional observations from a re-analysis of the deposited data

Results flagged for a closer look

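Both tissues responded differently to differentiation, by a test of the difference of log2 changes (spinal cord minus brain), for 10 receptor probe sets. For Ntrk2 the differences were -2.91 (1383135_at), -2.72 (1397246_at), -2.02 (1370687_a_at) and -1.55 (1368972_at), and every array of the first 3 moved down in spinal cord and up in brain cultures relative to the proliferative arrays. For Fgfr3 they were -1.61 (1384056_at) and -1.90 (1369373_at), and for Fgfr2 -0.83 (1373829_at) and -1.17 (1371179_a_at). Erbb3 differed by -3.59, with differentiated spinal cord values spread from 3.24 to 6.42, by -2.63 without spinal cord differentiated replicate 1 and by -1.75 with dim values at the floor, and Erbb2 by 1.04. Groups of 3 arrays were not tested for outlying arrays.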

How the results depend on the processing

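Calls of the 15 receptor probe sets in 5 comparisons were recomputed under up to 21 alternatives, 1550 values in all. Of these, 1478 kept direction and side of the threshold, 24 lost a call, 28 gained one and 20 changed sign, none of the 20 called before or after. The count called between proliferative cultures, 4, was 2 with only those groups fitted, and the cause was not tested. With single arrays left out, counts were 7 to 9 for brain and 10 to 13 for spinal cord differentiation, from 7 to 9 and from 3 to 4 between differentiated and between proliferative cultures, and from 9 to 11 for the difference of responses. Median centring moved the median log2 change over all tested probe sets by -0.15 in brain differentiation, -0.21 between proliferative cultures and 0.23 for the difference of responses. The share of rises among all calls went from 50.6% to 38.2%, from 51.2% to 31.7% and from 46.4% to 61.3% in these comparisons, and the receptors' rises and falls to 7 and 2, 2 and 4, and 1 and 7. Quantile normalization moved the difference of responses by 0.11.

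Sign changes were as follows. Fgfr1 1372447_at became -0.06 in brain (median centring), and -0.02 (quantile), -0.01 (without brain proliferative replicate 2) and -0.05 (without spinal cord proliferative replicate 1) for the difference of responses. Fgfr1 1387498_a_at became -0.11 in brain (median centring), 0.07 (median centring) and 0.02 to 0.03 (quantile, or without spinal cord proliferative replicate 2 or 3 or differentiated replicate 3) in spinal cord, where leaving out single arrays gave -0.07 to 0.03, and 0.19 for the difference of responses (median centring). Between proliferative cultures, Fgfr2 1373829_at became -0.05 without spinal cord proliferative replicate 1, Fgfr2 1370630_a_at -0.01 under either scaling, Fgfr3 1384056_at -0.08 with median centring, and Ntrk2 0.03, 0.06 and 0.30 (1383135_at, 1397246_at, 1368972_at) without spinal cord proliferative replicate 1 and 0.13 (1368972_at) without brain proliferative replicate 1. Leaving out single arrays, these differences reached 0.46 for Fgfr2 1373829_at and -0.50, -0.31 and -0.35 for the 3 Ntrk2 probe sets. The Met difference of responses became 0.05 with dim values at the floor.

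No pairing by the replicate numbers in the titles was seen: deviations of same-numbered arrays from their group means correlated at -0.119 to 0.048 over 18 pairs. Noise of single probe sets can hide a shared origin, so this does not settle whether same-numbered arrays share a culture or animal. With the replicate block the counts were 8, 11, 8, 4 and 10, and no receptor call changed. MAS5 values under the 40th percentile have no reliable order, which limits Erbb3, Erbb4, Met, Kit and Pdgfrb. The same limit holds for Fgfr2 1371179_a_at in proliferative cultures and for Ntrk2 1368972_at in differentiated spinal cord cultures.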
